A study of Homo sapiens with 12 samples.

Results

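Histone transcripts were followed in THP-1, an established human monocytic leukaemia line, over 12 Affymetrix PrimeView arrays. A gene was taken as a member when its symbol in the gene table of the array began with H1-, H2A, H2B, H3C, H3-, H4C or H4-, and it was represented by 1 probe set, the one with the highest mean over the 12 arrays among its probe sets with exactly 1 symbol. This gave 77 of 18132 genes. Of these, 61 are classed by symbol as replication-dependent cluster genes (H1-1 to H1-6, and symbols with a C and a number) and 13 as histone variants. The other 3 are no histone-coding genes: H1-10-AS1 is an antisense RNA, and H1-9P and H2BC20P are pseudogenes. Location was not used: H4C16 lies on chromosome 12, and H3-4, classed as a variant, is next to H2AC25 among the members on chromosome 1. A further 12 matching symbols have only probe sets that carry several symbols, among them H2AC18, H2AC19, H3C13, H3C14, H3C15, H4C11, H4C14 and H4C15, and no value is given for them as single genes.

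There are 4 groups of 3 arrays by their labels. Cells of all groups were THP-1 differentiated to a macrophage-like state, with the phorbol ester PMA at 100 ng/ml for 48 hours per the growth protocol. In the temperature experiment they were then kept at 37 °C or at a fever-like 40 °C, where harvests were made at 2, 8 and 24 hours; which of these the arrays hold is not stated. In the other experiment cells were, by the protocol, differentiated at 40 °C, given a hairpin inhibitor of a microRNA and a GFP plasmid by nucleofection, and sorted for GFP after 24 hours. The treated group is labelled siRNA or siThermomir (a thermomiR being a temperature-responsive microRNA) and the other control or WT. The labels and the protocol thus name the treatment differently, and it is called the inhibitor here. The microRNA that was blocked, and whether controls had the non-human control inhibitor, are not stated. All cells are of 1 line, and no label ties replicates to separate cultures, so each p-value reflects array-to-array spread that may be technical.

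Histones package DNA: 2 copies each of H2A, H2B, H3 and H4 form the nucleosome core, and H1 binds the linker DNA between cores. Most cluster genes have no introns, are transcribed in S phase when DNA is copied, and give messages that end in a stem-loop bound by SLBP instead of a poly-A tail. Variant genes are expressed outside S phase too, have mostly polyadenylated messages and serve particular places or times in chromatin, such as DNA breaks for H2AX and promoters for H2A.Z. Some cluster genes also give polyadenylated messages, mainly in cells that have left the cell cycle. Macrophages are mostly non-dividing cells.

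Values are log2 signals as deposited, and differences are differences of group means on that scale. How the RNA was labelled is not stated. It is therefore not known how far messages without a poly-A tail enter the values of cluster genes. Of the 77 members, 40 (29 cluster genes, 9 variants, 1 antisense RNA and 1 pseudogene) had a mean over the 12 arrays of at least 4.48, the 30th percentile of all probe sets, and were tested. The other 37 lay at 2.42 to 4.47. Each comparison was fitted with limma across 13909 genes, and a gene is called higher or lower when its Benjamini-Hochberg adjusted p (two-sided) is under 0.05. Array medians were 5.72 to 5.87. Bacterial poly-A control RNAs (24 probe sets) averaged 7.68 ± 0.04 at 37 °C, 7.77 ± 0.04 at 40 °C, 7.07 ± 0.35 in controls and 5.83 ± 0.27 with the inhibitor (SD, n = 3 arrays each). The mean of 11 monocyte and macrophage markers ranged over arrays from 9.91 to 9.93, 10.04 to 10.12, 10.03 to 10.09 and 9.35 to 9.48 in the same order. With bulk RNA, fewer cells of a type and less RNA per cell cannot be told apart.

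The temperature comparison asked which transcripts differ between macrophage-like cells at 37 °C and at fever-like 40 °C. Histone transcripts were mainly higher at 40 °C: 17 of 40 tested members (42.5%) were called higher and 1 (2.5%) lower, against 21.6% higher and 17.7% lower among all genes tested. At least 2-fold increases were found for 9 members (22.5%), where 0.525% of all genes had one, and at least 2-fold decreases for 0 (0.489% of all genes; 0 also at an unadjusted p under 0.05). These 9 make up 12.3% of the 73 genes with such an increase, and all of them are cluster genes. The median difference was 0.18 over the 29 cluster genes and 0.09 over the 9 variants, against 0.01 over all genes. The arrays of both temperatures did not overlap for 20 members that were higher and 3 that were lower, which is 27% and 22.5% for all genes.

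**Figure D1:**
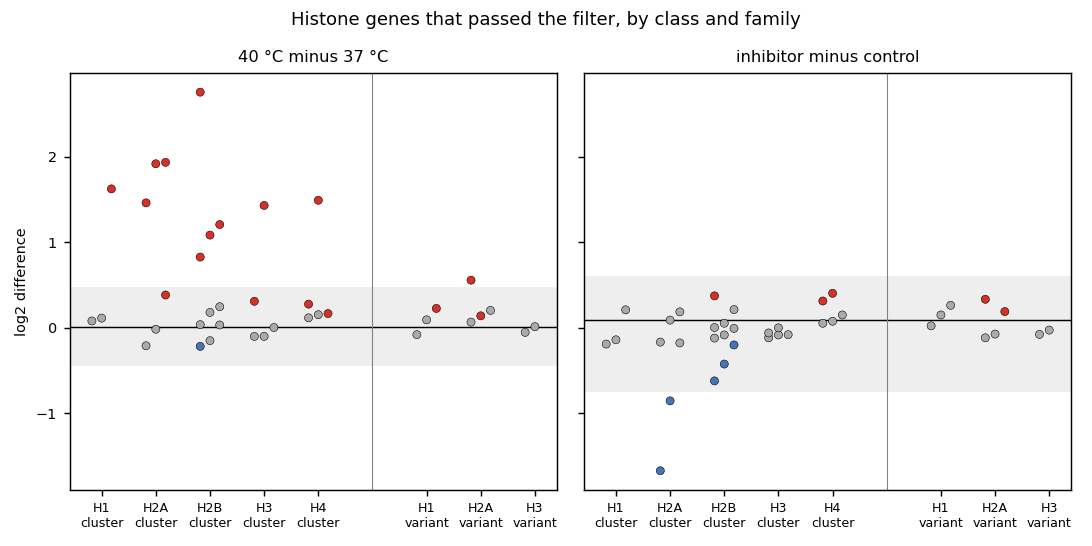
Log2 difference of each of the 38 histone-coding genes tested, 40 °C minus 37 °C on the left and inhibitor minus control on the right, by class (cluster or variant) and histone family. Each point is a gene, red where called higher, blue where called lower and grey where not called; the line is the median of all genes tested (0.01 and 0.09) and the grey band their 5th to 95th percentile. At 40 °C, 9 cluster genes lie at or above 1, in every cluster family, and the highest variant is at 0.56; with the inhibitor the highest member is at 0.40.

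H2BC5 (Entrez gene 3017), which encodes a core histone H2B, had the largest increase of all 13909 genes. Its signal was 6.58, 6.83 and 6.90 on the 37 °C arrays and 9.47, 9.49 and 9.61 on the 40 °C arrays. No array of either group came within the range of the other. The difference was 2.75 (SE 0.09), a 6.74-fold increase (limma, adjusted p = 2.7e-06). The gene has 3 probe sets, and the others gave 2.46 and 2.23, both called higher.

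Other genes for core histones H2A and H2B had the next differences. H2AC8 (Entrez gene 3012) read 5.44, 5.40 and 5.27 at 37 °C and 7.46, 7.33 and 7.12 at 40 °C, a 3.82-fold increase (difference 1.93, SE 0.09, adjusted p = 7.01e-06). H2AC6 (Entrez gene 8334) read 6.99, 7.16 and 7.01 against 8.88, 9.0 and 9.03, a 3.78-fold increase (1.92, SE 0.06, adjusted p = 2.89e-06). Both H2A genes were separated by more than 1 log2 unit between the groups. The only probe set of H2AC6 may be shared with other genes. A fainter probe set of H2AC8, which other genes may share, gave a smaller difference of 0.82, also called. H2AC11 rose from 6.14, 6.12 and 6.17 to 7.51, 7.67 and 7.63, by 2.75-fold (1.46, SE 0.05). H2AC25, an H2A gene of chromosome 1, rose by 0.38 (SE 0.06). H2AC15 and H2AC20 were not called, at −0.02 and −0.21, and H2AC20 had overlapping groups. A fainter probe set of H2AC20 was called lower with separate groups (−0.20, adjusted p = 0.0108), and the gene was called lower without replicate 1 at 40 °C (−0.29) or replicate 3 at 37 °C (−0.28).

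Among the H2B genes, H2BC21 (Entrez gene 8349) read 6.94, 7.14 and 6.94 at 37 °C and 8.26, 8.16 and 8.22 at 40 °C, a 2.31-fold increase (1.21, SE 0.07). H2BC12 (Entrez gene 85236) read 10.63, 10.67 and 10.62 against 11.80, 11.62 and 11.75, a 2.12-fold increase (1.08, SE 0.06). H2BC8 read 4.98, 4.96 and 4.85 against 5.79, 5.76 and 5.72, a 1.77-fold increase. In all 3 the groups were fully separate. The member called lower was also an H2B gene: H2BC9 read 6.68, 6.79 and 6.78 at 37 °C and 6.63, 6.47 and 6.50 at 40 °C (−0.22, SE 0.06, adjusted p = 0.0202). Its 3 probe sets were all called lower, down to −0.45, but the call of the chosen one was lost on leaving out replicate 2 or 3 of either temperature, with differences of −0.19 to −0.20. H2BC4, H2BC6, H2BC15, H2BC18 and H2BC26 were not called, at −0.15 to 0.25. Of the tested H2B genes, 4 of 10 were higher and 1 lower, against 21.6% and 17.7% of all genes. Of the H2A cluster genes, 4 of 6 were higher and 0 lower (1 lower at an unadjusted p under 0.05).

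H1-2 (Entrez gene 3006), a linker histone that compacts the DNA between nucleosomes, read 7.15, 7.39 and 7.27 at 37 °C and 8.93, 8.92 and 8.83 at 40 °C. It was 3.08-fold higher (1.62, SE 0.07, adjusted p = 5.76e-06), with no overlap. Its only probe set may bind other sequences too. The other linker genes tested, H1-3 (0.08, SE 0.07) and H1-4 (0.11, SE 0.08), missed the threshold; H1-4 lay below the test's level limit at both temperatures, as did H1-10-AS1, H2BC4 and H2BC26. Genes for H3 and H4 were mixed. H4C8 read 4.61, 4.71 and 4.31 against 6.07, 5.96 and 6.07, a 2.81-fold increase (1.49, SE 0.10), and H3C4 read 6.16, 6.18 and 5.90 against 7.58, 7.53 and 7.42, a 2.69-fold increase (1.43, SE 0.08). Both pairs of groups were separate. The only probe set of H4C8 may be shared with other genes. Smaller increases were called for H3C10 (0.31), H4C9 (0.28) and H4C3 (0.17). H4C3 read 12.83 to 12.87 at 37 °C and 13.01 to 13.03 at 40 °C, and its call was lost without replicate 3 at 37 °C (0.16, adjusted p = 0.0505). H3C7, H3C8, H3C12, H4C1 and H4C12 were not called, at −0.10 to 0.15. A second probe set of H4C12 was called higher (0.40, adjusted p = 0.0117). In counts, 2 of 5 H3 genes, 3 of 5 H4 genes and 1 of 3 H1 cluster genes were higher (21.6% of all genes). None of these 13 was lower, also at an unadjusted p under 0.05 (17.7% of all genes were called lower).

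**Figure D2:**
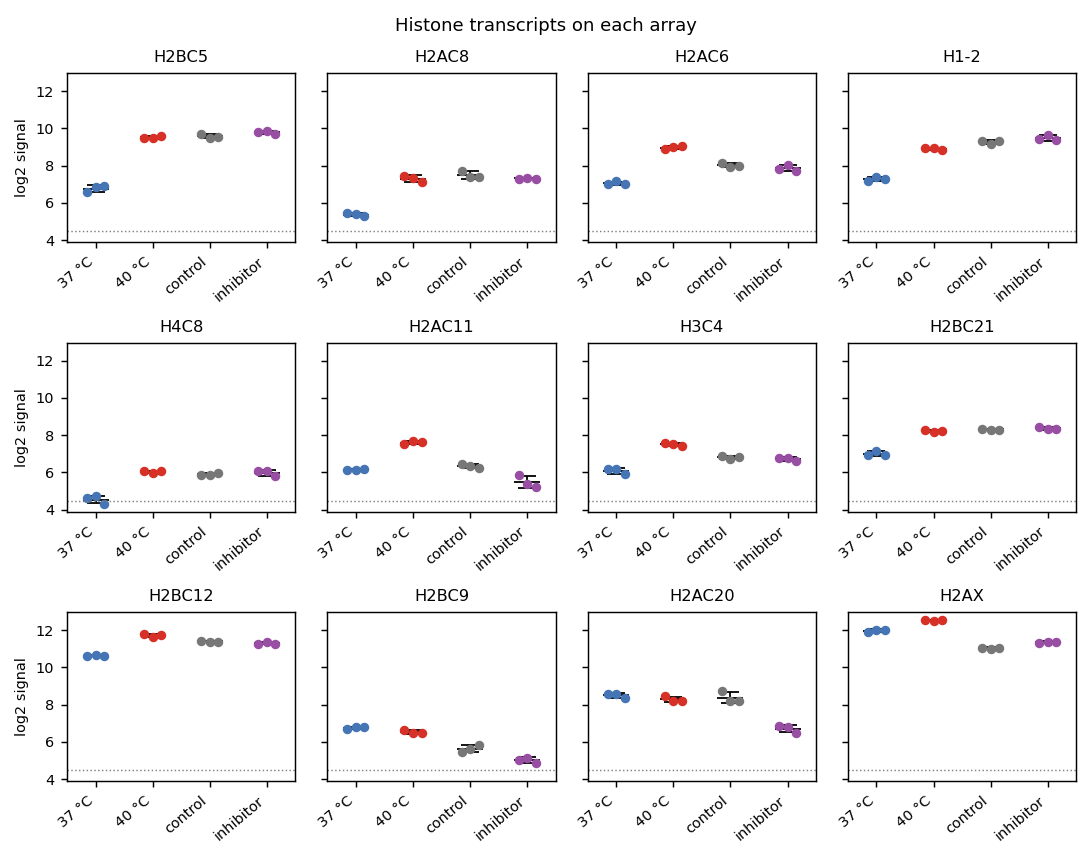
Log2 signal of 12 histone genes on each array (points), with the group mean and SD (bars, n = 3), at 37 °C, at 40 °C, in control cells and with the inhibitor; the dotted line is the level limit for testing (4.48). The first 9 panels are the genes at least 2-fold higher at 40 °C, whose 37 °C and 40 °C arrays are separate in every case; H2AC20 and H2AC11 are lower with the inhibitor and H2AX is higher in both experiments.

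Promoter sequences are shown for 6 of the 9 genes with at least 2-fold increases, chosen after their values were seen: the 4 with the largest differences, and H2BC21 and H2BC12, which hold an H2B octamer next to a TATA box. The lines give the 250 bases before each gene's start on the gene's own strand, 5′ to 3′, from RefSeq on GRCh38.p14. Capitals mark matches, on either strand, to ATTTGCAT (the octamer of histone H2B promoters, bound by POU2F1), TATAAA (the TATA box) and CCAAT; overlapping matches are merged.
H2BC5 (chr6:26157871-26158120, plus strand): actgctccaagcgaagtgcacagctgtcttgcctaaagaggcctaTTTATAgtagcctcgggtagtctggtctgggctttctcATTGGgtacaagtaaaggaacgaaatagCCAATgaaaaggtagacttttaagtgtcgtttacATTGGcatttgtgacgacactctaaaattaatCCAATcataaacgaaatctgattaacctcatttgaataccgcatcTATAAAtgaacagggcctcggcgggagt
H2AC8 (chr6:26216671-26216920, plus strand): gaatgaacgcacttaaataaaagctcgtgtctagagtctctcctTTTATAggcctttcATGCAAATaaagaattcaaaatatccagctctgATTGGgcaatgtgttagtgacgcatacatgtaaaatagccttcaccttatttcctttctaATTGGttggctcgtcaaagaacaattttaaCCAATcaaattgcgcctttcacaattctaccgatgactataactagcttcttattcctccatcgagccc
H2AC6 (chr6:26123922-26124171, plus strand): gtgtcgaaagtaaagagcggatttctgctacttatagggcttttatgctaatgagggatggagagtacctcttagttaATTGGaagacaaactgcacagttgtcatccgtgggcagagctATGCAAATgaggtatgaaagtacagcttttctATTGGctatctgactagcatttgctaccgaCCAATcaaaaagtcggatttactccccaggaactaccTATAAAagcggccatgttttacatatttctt
H1-2 (chr6:26056471-26056720, minus strand): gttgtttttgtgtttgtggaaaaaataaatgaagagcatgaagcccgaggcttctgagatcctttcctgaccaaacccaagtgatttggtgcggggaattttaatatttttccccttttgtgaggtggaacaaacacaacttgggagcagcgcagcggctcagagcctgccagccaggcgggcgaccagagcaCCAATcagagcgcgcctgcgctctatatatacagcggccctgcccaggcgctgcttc
H2BC21 (chr1:149886683-149886932, minus strand): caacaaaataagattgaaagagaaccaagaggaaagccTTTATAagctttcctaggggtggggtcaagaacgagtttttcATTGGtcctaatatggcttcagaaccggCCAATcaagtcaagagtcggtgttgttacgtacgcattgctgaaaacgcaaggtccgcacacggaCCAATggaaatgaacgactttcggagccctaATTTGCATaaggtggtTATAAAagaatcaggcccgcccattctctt
H2BC12 (chr6:27146859-27147108, minus strand): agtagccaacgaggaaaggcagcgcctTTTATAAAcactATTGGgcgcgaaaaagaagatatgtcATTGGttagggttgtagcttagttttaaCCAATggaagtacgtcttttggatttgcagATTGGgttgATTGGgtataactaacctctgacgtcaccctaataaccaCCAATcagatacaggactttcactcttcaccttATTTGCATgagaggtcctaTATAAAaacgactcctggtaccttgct
Counted back from the gene's start, the octamer begins at −46 in H2BC21 and H2BC12 and is followed by TATAAA at −30 and −27. In H2AC6 the octamer lies at −130, on the other strand, and TATAAA at −31. H2BC5, with the largest difference, has no exact octamer in this window, 2 TATAAA matches and 4 of CCAAT. H1-2 has 1 CCAAT and neither of the other 2 motifs.

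Over all members, 68 of 77 have a promoter in the RefSeq table, 56 of them cluster genes. The octamer was found in 26 of these 56 (46.4%), against 1.66% of 27305 promoters of the same length. It was found in 11 of 14 H2A and 14 of 18 H2B promoters, 1 of 8 H3 promoters, and 0 of 10 H4 and 0 of 6 H1 promoters. Among the cluster genes with a promoter, it was held by 7 of 13 called higher at 40 °C and by 5 of 13 tested but not called higher. The same counts were 8 and 7 of 13 for TATAAA (11.1% of all promoters), and 12 and 12 of 13 for CCAAT (33.0%). The core of the heat shock element was searched as GAANNTTC and as TTCNNGAA, each of which reads the same on both strands. The former was found in 0 of 13 genes called higher and 1 of 13 others (5.85% of all promoters), and the latter in 0 of 13 of each (6.72%). These are matches of letters in a 250-base window, and no binding was measured. Head-to-head partners, described below, share much of their windows, and matches on either strand count for both genes. A single site can thus enter both counts, as for H2AC6 (called higher) and H2BC4 (not called), with 1 octamer each. The H2A and H2B counts overlap in the same way.

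Many cluster genes stand head to head, with promoter windows (250 bases before and 50 after the start) that overlap. Values of the partners at 40 °C lay apart in several of them. H2BC8 and H2AC8, whose windows share 268 bases, differed by 0.83 and 1.93, both called higher. Their other probe sets gave 1.02 for H2BC8 and 0.82 for H2AC8, so the order of these partners depends on the probe set. H2AC6 rose by 1.92 while H2BC4 across 255 shared bases was not called (0.25, SE 0.09), at levels of 3.93 and 4.17 below the limit for testing. H2BC21 rose by 1.21, while H2AC20 across 265 shared bases differed by −0.21 (SE 0.09, adjusted p = 0.0995). H2AC25 rose by 0.38 and H2BC26 across 271 bases was at 0.04. H2AC11 rose by 1.46, and its partner H2BC11, too faint to be tested, went from 3.69 to 4.61 with separate groups. That probe set may be shared with other genes. Of 2 fainter ones, the one specific to H2BC11 went from 3.45 to 3.33 with overlapping groups, and the other differed by 0.53. Differences between partners were not tested, since each rests on another probe set.

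On chromosome 6, which holds 54 of the cluster members, 12 of 24 tested genes were higher and 1 lower, against 21.6% and 17.7% of all genes. The increases were spread along the clusters, from H1-2 to H3C10 in gene order, with genes that were not called or not tested between them. On chromosome 1, 2 of 5 tested genes were higher, H2BC21 and H2AC25.

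**Figure D3:**
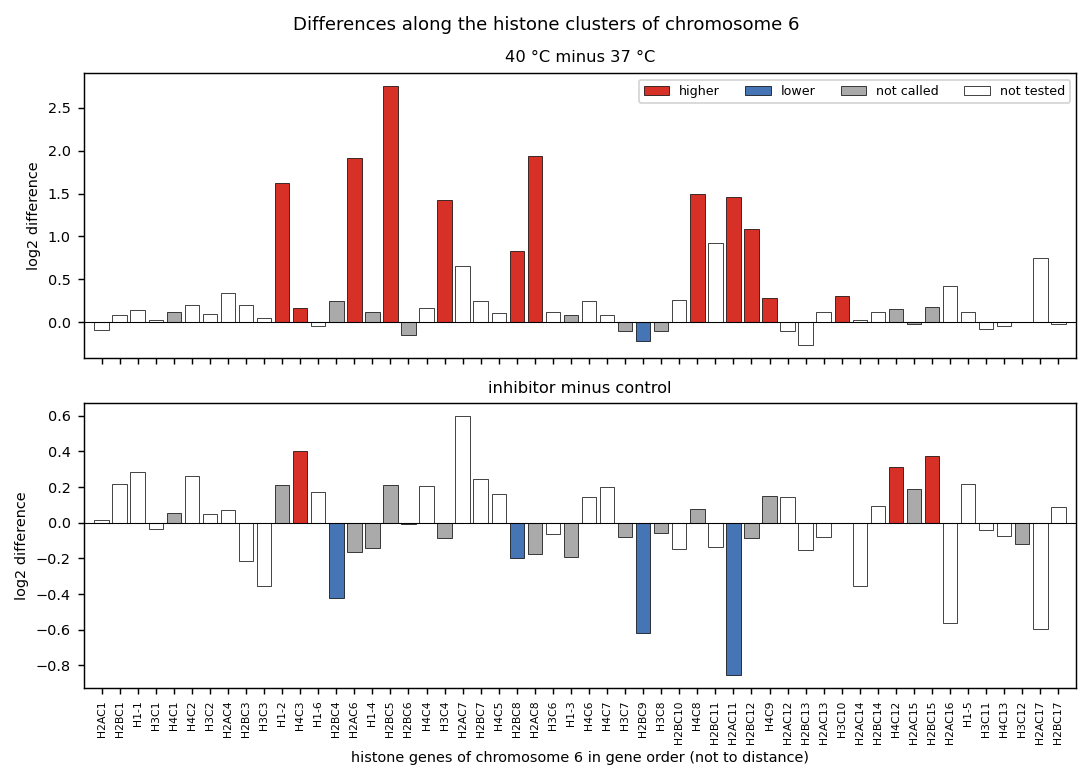
Log2 differences of the 54 cluster genes of chromosome 6 in the order they lie on the chromosome (even spacing, not distance), 40 °C minus 37 °C above and inhibitor minus control below. Bars are red where called higher, blue where called lower, grey where not called and white where the gene was too faint to test. At 40 °C called genes (12 higher, 1 lower) stand among genes that were not called; with the inhibitor 3 are higher and 4 lower.

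Variant genes had differences of at most 0.56 at 40 °C. Of 9 tested, 3 were higher and 0 lower (4 and 0 at an unadjusted p under 0.05), against 21.6% and 17.7% of all genes. H2AX (Entrez gene 3014), phosphorylated next to DNA breaks, read 11.89, 12.03 and 12 at 37 °C and 12.55, 12.51 and 12.53 at 40 °C, with separate groups (0.56, SE 0.05, 1.47-fold, adjusted p = 0.000116). H1-10, a linker variant, was higher by 0.23 (SE 0.04), but its other probe set, which is specific to the gene, gave −0.08 and was not called. H2AZ2, a gene for H2A.Z, was higher by 0.14 (SE 0.05, adjusted p = 0.0422). This call was lost on leaving out any of 5 of the 6 arrays (every one but replicate 2 at 37 °C), and its 5 probe sets ran from −0.62, called lower, to 0.35, called higher. H2AZ1, the other H2A.Z gene, differed by 0.07 (SE 0.04), H2AJ, an H2A variant, by 0.20 (SE 0.07) and H3-3B, a gene for the replacement histone H3.3, by −0.05 (SE 0.04), none of them called. The fainter probe sets of H3-3B went down to −0.56, called lower. H3-3A, the other H3.3 gene, has a probe set of its own at 2.83 that was not tested, while 3 probe sets it shares with a pseudogene stood at 13.28 to 13.52 and differed by −0.04 to −0.03.

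The 37 members under the level limit differed by −0.26 to 0.92 at 40 °C. The groups were separate for 10 that were higher and 1 that was lower, which is 5.97% and 6.37% for all genes too faint to test. Among the former were H2BC11 (0.92, not seen in its specific probe set), H2AC17 (0.75) and H2AC7 (0.65). The latter was H2BC13 (−0.26). These have no test.

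Probe sets named by several symbols or shared among near-identical genes need separate account, because cluster genes differ little in their coding sequence. The suffix of a probe set's name tells how specific it is: _at matches 1 transcript, _a_at several transcripts of 1 gene, _s_at transcripts of several genes, and _x_at may bind other sequences too. For cluster genes at 40 °C, 7 of 16 tested probe sets ending in _at were higher and 0 lower (1 lower at an unadjusted p under 0.05), against 17.2% and 17.5% of all probe sets of that kind. The counts were 9 higher and 0 lower of 14 for _s_at (21.1% and 22.4% of all; 0 lower also at an unadjusted p under 0.05), 6 and 3 of 11 for _x_at (18.8% and 15.5%) and 2 and 1 of 3 for _a_at (20.8% and 16.8%). The specific _at group holds H2BC5, H2AC8, H2AC11, H2BC12 and H3C4, each at least 2-fold higher on the chosen probe set. Fainter _at probe sets of H2AC11 and H2BC12, not tested, differed by 0.46 and 0.17. The only probe sets of H2AC6 and H4C8 end in _s_at, and that of H1-2 in _x_at. Their increases may thus come in part from other genes. Of 9 tested probe sets with several histone symbols, 5 were higher and 0 lower (the same at an unadjusted p under 0.05), up to 1.83.

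Of 17 genes with at least 2 tested probe sets, 7 had all of them called in 1 direction at 40 °C: H2AC8, H2BC5, H2BC8, H3C10, H4C3 and H4C9 upward and H2BC9 downward. H2AZ2 had calls both ways. The same counts were not made over all genes, so it is not known whether these are unusual. For H3C10 the specific probe set gave 0.31 and a shared one 1.59. For H2BC18 the specific probe set differed by 0.03 and was not called, while 2 shared ones gave 0.84 and 0.65, called higher.

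**Figure D4:**
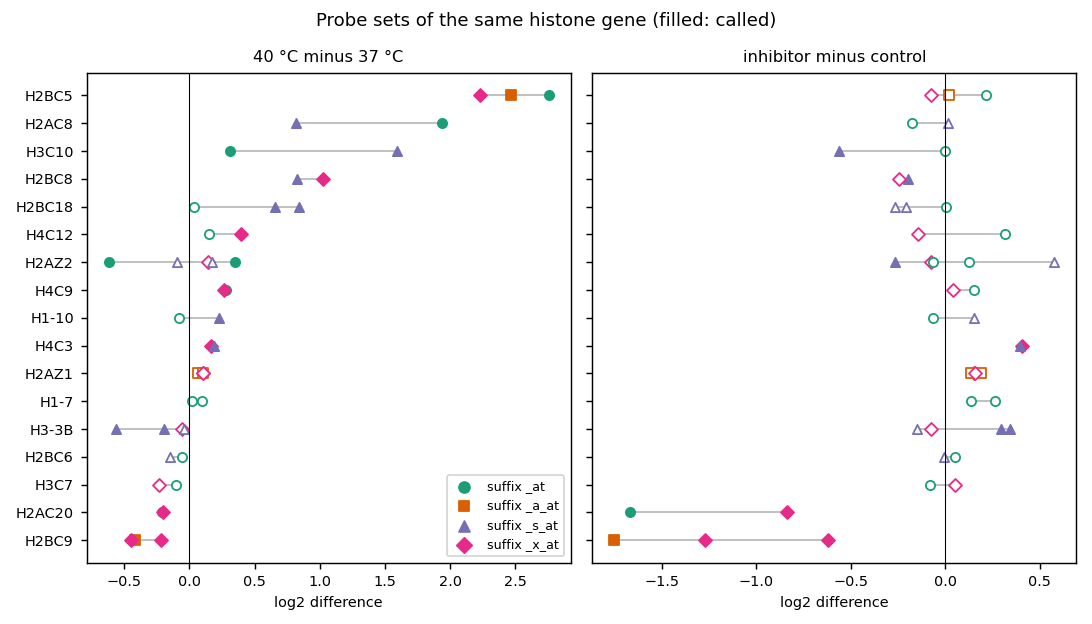
Log2 differences of every tested probe set with 1 symbol, for the 17 genes that have at least 2, at 40 °C minus 37 °C (left) and inhibitor minus control (right). Shapes and colours give the suffix, filled symbols were called (limma, adjusted over 34507 probe sets) and grey lines join the probe sets of a gene. The 3 probe sets of H2BC5 lie together at 2.23 to 2.75, those of H2AZ2 spread on both sides of 0, and those of H2BC9 and H2AC20 with the inhibitor lie at −0.62 or lower.

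The inhibitor comparison asked which transcripts differ in cells given an inhibitor of a thermomiR. Most histone transcripts were not called: 5 of 40 were higher (12.5%) and 5 lower (12.5%), against 25.6% higher and 19.6% lower among all genes, whose median difference was 0.09. All 5 lower members are cluster genes of H2A or H2B, and the median over the 29 cluster genes was −0.06. The groups did not overlap for 9 members that were higher and 7 that were lower (31.2% and 22.9% of all genes). No member was higher by at least 2-fold (0.683% of all genes; 0 at an unadjusted p under 0.05) and 1 was lower by as much (2.7%). The poly-A control RNAs were lower on the inhibitor arrays, with no overlap between the groups. With their level on each array as a covariate none of the 10 calls held (limma). The counts were 0 higher and 0 lower, and 2 and 2 at an unadjusted p under 0.05. Over all 13909 genes the covariate left 65 higher and 208 lower, where 3567 and 2721 were called without it.

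H2AC20 (Entrez gene 8338), a core H2A gene of chromosome 1, had the largest difference. It read 8.71, 8.21 and 8.21 in control cells and 6.83, 6.79 and 6.50 with the inhibitor. All inhibitor arrays lay below all control arrays, by 3.18-fold (−1.67, SE 0.15, adjusted p = 0.000169), and the covariate left the size at −1.77 (adjusted p = 0.107). A second probe set of the gene gave −0.84, also called. Across the shared promoter window, H2BC21 read 8.35, 8.29 and 8.29 against 8.46, 8.32 and 8.31 and was not called (0.05, SE 0.06).

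H2AC11 read 6.44, 6.32 and 6.23 in controls and 5.84, 5.40 and 5.19 with the inhibitor, a 1.81-fold decrease (−0.85, SE 0.16, adjusted p = 0.00358). H2BC9 read 5.45, 5.63 and 5.82 against 5.03, 5.16 and 4.85 (−0.62, SE 0.12), and its other probe sets fell further, by 1.27 and 1.75 on the log2 scale. In both genes the groups were separate. H2BC4 read 5.78, 5.68 and 5.64 against 5.37, 5.43 and 5.03 (−0.42, SE 0.11), and was not called without control replicate 1. H2BC8 differed by −0.20 (SE 0.06) and lost its call without control replicate 1 or 3, or inhibitor replicate 1 or 3.

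Among the increases, H4C3, a gene for core histone H4, read 11.27, 11.15 and 11.19 in controls and 11.61, 11.65 and 11.56 with the inhibitor (0.40, SE 0.06, adjusted p = 0.00144). H2AX read 11.05, 10.98 and 11.07 against 11.33, 11.38 and 11.39 (0.33, SE 0.06, 1.26-fold). Both had separate groups and 0 lost calls when any 1 array was left out. H2BC15 (0.37), H4C12 (0.31) and H2AZ1 (0.19) were called with adjusted p of 0.0295, 0.0478 and 0.0335. Each of these lost its call without inhibitor replicate 1, control replicate 1 or control replicate 2; H2BC15 also lost it without inhibitor replicate 2 or control replicate 3, H4C12 without replicate 3 of either group, and H2AZ1 without inhibitor replicate 2 or 3. The second probe set of H4C12 gave −0.14 and was not called.

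Of the 9 genes at least 2-fold higher at 40 °C, H2AC11 was called lower with the inhibitor (above) and the other 8 were not called. H2BC5 read 9.69, 9.50 and 9.54 in controls and 9.79, 9.88 and 9.70 with the inhibitor (0.21, 95% interval 0.03 to 0.39, adjusted p = 0.0569), and was called without control replicate 1 (0.27) or inhibitor replicate 3 (0.26). The differences of H2AC8 (−0.18, interval −0.41 to 0.05), H2AC6 (−0.17, −0.40 to 0.06) and H1-2 (0.21, 0.01 to 0.41) also missed the threshold. H2AC6 was called without inhibitor replicate 2, and H2BC5 and H1-2 were called in further settings given below. H2BC12, H2BC21, H3C4 and H4C8 differed by −0.08 to 0.08. The 5 H3 cluster genes lay between −0.12 and 0.00, none called (0 at an unadjusted p under 0.05), while a shared probe set of H3C10 was called lower, at −0.56. Variants other than H2AX and H2AZ1 were not called, at −0.12 to 0.26: H2AZ2 was at −0.07, H2AJ at −0.12, H3-3B at −0.08 and H1-10 at 0.15. For H3-3B, 2 fainter probe sets were called higher, by 0.34 and 0.30, and for H2AZ2 1 fainter probe set was called lower, at −0.27.

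Of the 40 tested members, 18 were called in the temperature comparison, 10 in the inhibitor comparison and 5 in both. The comparisons share no arrays. The share of all genes called in both was not counted, so no link between the experiments is drawn from the 5. H2AX and H4C3 were higher in both, H2BC9 was lower in both, and H2AC11 and H2BC8 were higher at 40 °C and lower with the inhibitor. Among cluster probe sets with the inhibitor, 0 of 16 ending in _at were higher and 2 lower (2 and 2 at an unadjusted p under 0.05; 23% and 15.9% of all such probe sets were called), 0 and 1 of 3 ending in _a_at (19.3% and 23.9%; 0 and 1 at an unadjusted p under 0.05), 2 and 3 of 14 ending in _s_at (24.1% and 24.5%) and 1 and 3 of 11 ending in _x_at (22.7% and 19.9%). Of the 9 probe sets with several histone symbols, 0 were higher and 3 lower, at −0.39 to 0.10 (the same counts at an unadjusted p under 0.05). Members too faint to test differed by −0.59 to 0.60, with separate groups for 7 of 37 that were higher and 5 that were lower (13.5% and 3.77% of all genes too faint to test).

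Other genes of histone message production and of the cell cycle were counted as lists, against the shares of all genes given above. A list of genes that process histone messages or control their transcription also held parts of the polyadenylation machinery, such as WDR33. Of its 25 tested genes, 7 were higher and 3 lower at 40 °C. SLBP, which binds the stem-loop, rose by 0.28 (SE 0.05, adjusted p = 0.00261), and LSM10 and LSM11, parts of the U7 particle that guides the cut of the 3′ end, rose by 0.48 (SE 0.05) and 0.61 (SE 0.09). CPSF3, the nuclease that makes the cut, fell by 0.28 (SE 0.04). NPAT, a factor that activates histone transcription in S phase, was not called (−0.14, SE 0.06). With the inhibitor 7 were higher and 6 lower: SLBP fell by 0.25 (SE 0.07), CPSF3 by 0.58 (SE 0.06), WDR33, a subunit of the polyadenylation machinery, by 1.07 (SE 0.08), and ZNF473, a U7 partner, rose by 0.55 (SE 0.07).

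Genes of S phase and DNA replication were mostly higher at 40 °C, 20 of 33 with 1 lower. CCNE1, the cyclin of S phase entry, rose from 8.35 ± 0.02 to 9.05 ± 0.03 (0.70, SE 0.04), MCM3 of the replicative helicase by 0.60 (SE 0.05), and PCNA, the sliding clamp, by 0.26 (SE 0.04). Of 18 mitosis genes, 2 were higher and 6 lower: the motor gene KIF11 fell by 0.66 (SE 0.06) and CDK1, the mitotic kinase, by 0.31 (SE 0.04), while the proliferation marker MKI67 was not called (0.10, SE 0.05). Of 12 genes of cell cycle exit, 1 was higher and 7 lower. With the inhibitor, 11 of 33 S phase genes were higher and 7 lower, and 17 of 18 mitosis genes were lower and 0 higher (0 also at an unadjusted p under 0.05). MCM7 rose by 0.80 (SE 0.06), CCNA2, a cyclin of S and G2 phase, fell by 1.35 (SE 0.09), MKI67 by 0.62 (SE 0.10) and TOP2A by 2.21 (SE 0.12). The part of cell cycle genes in the histone values was not tested.

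Markers of the studied cell type moved too. Of 11 macrophage markers, 7 were higher and 3 lower at 40 °C (21.6% and 17.7% of all genes). With the inhibitor 1 was higher and 8 lower (25.6% and 19.6%). Markers of other cell types had few calls: at 40 °C 0 of 2 erythroid, 0 of 4 lymphocyte and 0 of 4 fibroblast or epithelial genes tested were called (0 at an unadjusted p under 0.05), and with the inhibitor the lymphocyte gene NKG7 and the epithelial KRT8 were higher, by 0.98 and 0.28. The array means of these marker lists were 3.99 to 5.48 in all groups. Their part in the histone values was not tested.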

How the data were processed

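RNA of THP-1 cells, extracted with Trizol per the labels' protocols, was measured on 12 arrays. The deposited table holds log2 values for 49395 probe sets; the authors' background correction, normalization and summarisation, and any genome build, are not given in the sources used. Names of probe sets came from the gene table of the platform (44994 with 1 symbol, 1832 with several). The members and gene lists were chosen with earlier results of these data known, so their counts are descriptions. Genes named in full were up to 10 called members with the largest increases and decreases per comparison, H2BC5, H2AC6, H2AC8 and the main variants, up to 4 called members of each other list by p, and SLBP, NPAT, CENPA, MACROH2A1, MKI67 and PCNA; any member could be named.

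Each experiment was fitted alone with limma 3.58.1 in R 4.3.3 (lmFit, eBayes, no block; 4 residual degrees of freedom, prior 3.86 and 3.33), with Benjamini-Hochberg adjustment over 13909 genes, or over 34507 probe sets where probe sets are described. The procedure was tested on simulated data. With 3 arrays against 3, an exact permutation test cannot give a p below 0.1, so none was run. Promoters of 250 bases came from RefSeq (GRCh38.p14). Alternatives were a fit of all 12 arrays, the replicate block, other filters, other probe set choices, quantile normalization, median centring, trend and robust eBayes, a spike covariate and leaving out each array. Deviations of same-numbered arrays correlated at −0.60 to 0.23, which cannot settle whether arrays were paired. Protein sequences were not used here. Figures used Python 3.11.15 and matplotlib 3.10.9.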

Additional observations from a re-analysis of the deposited data

How the results depend on the processing

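At 40 °C the 17 increases stayed within 1.5 times under every alternative but 1: with only _at and _a_at probe sets, 10 of 26 tested members were higher. The single decrease became 0 in the fit of all 12 arrays, with the replicate block and with the spike covariate (limma; 1, 2 and 2 at an unadjusted p under 0.05), 2 without a filter and with trend and robust eBayes, and 3 when probe sets of a gene were averaged. Leaving out 1 array gave 16 to 18 increases, 0 to 2 decreases and 9 to 9 members at least 2-fold apart. The 9 members at least 2-fold apart became 8 with the 50th percentile filter, and 6 when probe sets were averaged or only _at and _a_at probe sets were used. H2AC20 was called lower when probe sets were averaged and with trend and robust eBayes. With the spike covariate 12 of the 18 calls held; H1-10, H2AZ2, H2BC9, H3C10, H4C3 and H4C9 lost theirs.

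With the inhibitor the 5 increases became 9 in the fit of all 12 arrays, 8 without a filter and with trend and robust eBayes, 3 with the mean of probe sets and with only _at and _a_at probe sets, and 2 with the replicate block. The 5 decreases became 9 without a filter and 3 with only _at and _a_at probe sets. The member at least 2-fold apart became 2 with the mean of probe sets and with only _at and _a_at probe sets. The spike covariate gave 0, 0 and 0 (2, 2 and 1 at an unadjusted p under 0.05), where 65 higher and 208 lower were left over all 13909 genes. It leaves 3 residual degrees of freedom and the spike levels of the groups do not overlap. Leaving out 1 array gave 2 to 5, 3 to 6 and 1 to 2. H2BC5, H1-2 and H1-10, not called in the main fit, were called with quantile normalization and with trend and robust eBayes. The fit of all 12 arrays also called H1-2 and H1-10, and the 50th percentile filter also called H2BC5.

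Among values called in at least 1 of the settings compared, signs turned for H2AZ2 at 40 °C (−0.0093 with the mean of probe sets), H1-10 at 40 °C (−0.08 with only _at and _a_at probe sets) and H4C12 with the inhibitor (−0.0027 with the spike covariate). With the inhibitor and the mean of probe sets, H3C10 went from 0.00 to −0.28, called lower, while H3-3B (−0.08 to 0.10) and H2AZ2 (−0.07 to 0.06) changed sign without a call. The causes were not tested. No label states whether equal replicate numbers pair the arrays. Deviations of same-numbered arrays correlated at −0.13, −0.10 and 0.23 for temperature and at −0.19, −0.60 and −0.15 for the inhibitor. With 3 arrays per group, centred on their mean, such correlations cannot settle this. The replicate block kept 16 of 18 and 6 of 10 calls. Quantile normalization kept 18 of 18 and 9 of 10. Signal over background limits the 37 members that were not tested, and cluster genes with shared probe sets cannot be told apart from each other.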

Other observations

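Of 31 tested genes for proteins that carry and deposit histones, 9 were higher and 5 lower at 40 °C (21.6% and 17.7% of all genes), and 17 were higher and 5 lower with the inhibitor (25.6% and 19.6%). At 40 °C, TONSL, a chaperone of new H3 and H4 at replication forks, rose by 0.66 (SE 0.09), CHAF1A, the large subunit of the replication-coupled deposition complex CAF-1, by 0.44 (SE 0.05) and CABIN1, a partner of HIRA, by 0.31 (SE 0.04), while NAP1L1, a chaperone of H2A and H2B, fell by 0.32 (SE 0.05). With the inhibitor, HIRA, which deposits H3.3 outside S phase, fell from 9.14 ± 0.07 to 7.93 ± 0.10 (−1.21, SE 0.07). DAXX, another H3.3 chaperone, rose by 0.75 (SE 0.07), and SRCAP, which exchanges H2A for H2A.Z, by 0.99 (SE 0.10).

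Variants whose symbols lie outside the pattern also had calls. MACROH2A1, a large H2A variant of silent chromatin, was higher at 40 °C (0.21, SE 0.04) and with the inhibitor (0.18, SE 0.06), and its relative MACROH2A2 was higher at 40 °C (0.26, SE 0.08) and lower with the inhibitor (−0.57, SE 0.15). CENPA, the H3 variant of centromeres, was not called at 40 °C (−0.08, SE 0.04) and fell by 1.41 (SE 0.09) with the inhibitor. Of 28 enzymes that modify histones, 8 were higher and 6 lower at 40 °C (21.6% and 17.7% of all genes). With the inhibitor 12 were higher and 5 lower (25.6% and 19.6%). KAT2A, an acetyltransferase, rose in both, by 0.68 (SE 0.09) and 0.56 (SE 0.06), and the deacetylase gene HDAC3 fell by 0.49 (SE 0.06) at 40 °C and rose by 0.39 (SE 0.08) with the inhibitor. The cell cycle exit gene GADD45A, induced by DNA damage, fell by 0.66 (SE 0.05) and 1.31 (SE 0.10).

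Control cells of the inhibitor experiment, differentiated at 40 °C per the protocol, and cells of the 40 °C group differ in handling, so their levels stand side by side without a test. H2BC5 stood at 9.58 ± 0.10 in the controls and 9.52 ± 0.08 at 40 °C, and H2AC8 at 7.50 ± 0.19 and 7.30 ± 0.17. Both lie above the 37 °C group, at 6.77 ± 0.17 and 5.37 ± 0.09. The other genes at least 2-fold higher at 40 °C went both ways. Control minus 40 °C was 0.38 for H1-2 and 0.10 for H2BC21. It was −0.13 for H4C8, −0.33 for H2BC12, −0.70 for H3C4, −0.95 for H2AC6 and −1.27 for H2AC11. In the controls H2AC11 stood at 6.33 ± 0.11, near its 37 °C level of 6.14 ± 0.03. H4C3 stood at 11.20 ± 0.06 in controls and 13.02 ± 0.01 at 40 °C, H2AX at 11.03 ± 0.05 and 12.53 ± 0.02, and H2BC4 at 5.70 ± 0.07 and 4.17 ± 0.12 (SD, n = 3 in each case).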
